A study of Mus musculus with 6 samples.

Results

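The genes described here are 10 carriers of cell fuel and their helper protein: the glucose transporters Slc2a1, Slc2a3, Slc2a8 and Slc2a12, the monocarboxylate transporters Slc16a1, Slc16a6, Slc16a8, Slc16a9 and Slc16a12, and Bsg (basigin). They were taken by gene symbol, 10 of the 24354 names in the table, and 9 of them passed the filter for testing. Their mRNA was read by TRAP-seq (translating ribosome affinity purification, in which tagged ribosomes are pulled down with the mRNA they carry) from choroid plexus (ChP) of adult mice, aged 60 days, and of embryos at E16.5, with 3 samples per age. Mice of both ages were FoxJ1:cre x bacTRAP (EGFP:L10a), so that the tag sits on ribosomes of cells in which the Foxj1 promoter, a driver of genes in ciliated cells, had switched it on. No drug was given, and both ages carried the same alleles, so age is the labelled difference. By the study's methods each sample was a pool, of 3 mice in the adult and of 3 litters at E16.5, whereas the series description counts 3 mice per age. The p-values measure the spread between these samples only.

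The ChP epithelium stands between blood and cerebrospinal fluid, makes the fluid and spends much energy on ion pumping. Facilitative glucose transporters of the Slc2 (GLUT) family let glucose move down its gradient. Several Slc16 (MCT) proteins move lactate, pyruvate and ketone bodies together with protons, whereas other Slc16 proteins carry creatine, carnitine or aromatic amino acids. Basigin is a membrane glycoprotein that brings some MCT proteins to the cell surface.

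Slc2a12 and Slc16a6 were higher in the adult, by 3.16-fold and 7.83-fold of the mean FPKM, and these were the members that passed the test. That is 2 of 9 tested members, and the background is 2.12% of the 11601 genes tested. No member was called higher at E16.5 (0 of 9 by limma, background 8.83%). Slc2a1 and Bsg were lower in every adult sample than in every E16.5 sample, with unadjusted p of 0.0443 and 0.0455 by limma, but did not pass the test after adjustment. The other 5 tested members overlapped between the ages, and Slc2a3 was at or next to 0 throughout. FPKM counts sequenced fragments relative to the length of the transcript and to the mapped reads of the library, so that levels of different genes can be set side by side. Changes are differences of log2(FPKM + 1), adult minus E16.5, a scale that understates changes of low genes.

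The promoters of Slc2a1 and Slc2a12 are shown because these genes made up most of the glucose transporter signal and their levels stood in opposite order between the ages. Each is the 250 bases before the gene's start in RefSeq on GRCm38.p6, 5′ to 3′ on the gene's own strand. Capitals mark ACGTG or GCGTG, the core letters of hypoxia response elements, read on either strand, so that GCGTG on the other strand appears as CACGC.
Slc2a1, chr4:119108495-119108744, plus strand: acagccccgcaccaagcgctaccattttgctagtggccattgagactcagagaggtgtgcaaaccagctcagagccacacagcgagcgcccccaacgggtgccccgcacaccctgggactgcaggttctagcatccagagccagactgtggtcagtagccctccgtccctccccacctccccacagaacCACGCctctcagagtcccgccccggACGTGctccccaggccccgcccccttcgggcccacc
Slc2a12, chr10:22644761-22645010, plus strand: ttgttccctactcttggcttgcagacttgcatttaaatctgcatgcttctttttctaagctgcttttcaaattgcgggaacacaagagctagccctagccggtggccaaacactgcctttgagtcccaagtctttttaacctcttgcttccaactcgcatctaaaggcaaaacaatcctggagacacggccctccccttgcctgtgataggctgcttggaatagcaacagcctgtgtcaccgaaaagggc
The Slc2a1 window held 1 ACGTG beginning 36 bases and 1 GCGTG beginning 61 bases before the start, and the Slc2a12 window held neither. In GENCODE, the source of the gene coordinates below, Slc2a1 starts at 119108711, inside this window. The distances therefore hold for the RefSeq start only. GCGTG was also in the windows of Slc2a8, Slc16a1 and Slc16a9, and ACGTG in those of Slc16a1 and Slc16a12, whereas the Slc16a8 window held neither. Slc2a8, Slc16a1 and Slc16a9 had higher means in the adult, so these letters did not go with lower adult levels in every member. Among 32851 RefSeq promoter windows of this length, 16.6% held ACGTG and 28.2% held GCGTG. The E-box CACGTG, which contains ACGTG on both strands, was found in the windows of Slc16a1 and Slc16a12 and in 6.02% of all windows. TAATCC, bound by OTX factors, was in none of the 7 members' windows in the RefSeq table and in 6.25% of all. A match is a description of letters, and no match says only that the letters are not in this window.

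Among the glucose transporters, Slc2a12 (GLUT12, at 10:22645011-22704285, plus strand, GRCm38) is a facilitative transporter of the plasma membrane and of vesicles. It read 113, 158 and 189 FPKM in adult replicates 1 to 3, and 36.5, 56.6 and 52.2 FPKM in E16.5 replicates 1 to 3. The ages did not overlap, with the adult higher. The means were 153 ± 38.3 and 48.4 ± 10.6 FPKM (SD, n = 3 each), a log2 change of 1.63 (SE 0.33, adjusted p = 0.0256 by limma). The exact permutation test gave p = 0.1, the smallest that 3 samples against 3 can give. Leaving out E16.5 replicate 1, 2 or 3 kept the change between 1.44 and 1.75 on the log2 scale and took the adjusted p of limma to 0.0705, 0.0611 and 0.0657, past the threshold. With every library rescaled to the same sum of FPKM it was 0.81 (adjusted p = 0.152, limma). Of the 50-base stretches of its transcripts, 8.55% were shared with Tbpl1, a neighbour on the opposite strand. Tbpl1, a TBP-like transcription factor, read 38.4, 34.6 and 71.6 FPKM in the adult and 31.5, 19.2 and 11.3 FPKM at E16.5, also without overlap (log2 change 1.22, SE 0.49, adjusted p = 0.143 by limma). Whether reads were assigned by strand is not given in the sources used here, and the part of Tbpl1 in the Slc2a12 values was not tested.

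Slc2a1 (GLUT1, at 4:119108711-119137983, plus strand) is the main glucose carrier of the barriers between blood and brain. It read 17.6, 36.5 and 19.2 FPKM in the adult and 47.1, 53.0 and 39.3 FPKM at E16.5. The highest adult sample was just under the lowest E16.5 sample. The means were 24.4 ± 10.5 and 46.5 ± 6.91 FPKM, 1.90-fold higher at E16.5, and the log2 change was -0.97 (SE 0.40, adjusted p = 0.149, limma), so it was not called. The median log2 change of all genes tested was -0.86, which leaves Slc2a1 at -0.11 relative to it. This position depends on the filter and the pseudocount. Among genes above 0 in every sample the median was -0.38, and Slc2a1 stood at -0.59 relative to it. With pseudocounts of 0.1 and 0.01 Slc2a1 stood at 0.26 and 0.48 relative to the median. Rescaled to the same sum of FPKM the change was -1.77 and passed (adjusted p = 0.0304, limma), at -0.29 relative to a median that this scaling had moved to -1.48.

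GLUT1 is also abundant in brain endothelium and red blood cells, whose markers were therefore listed. The 10 endothelial markers summed to 0.489 to 27.2 FPKM in the adult and 12.7 to 40.9 FPKM at E16.5. Pecam1 and Cldn5 were at 0 in all E16.5 samples, Tek, Plvap and Emcn in all adult samples, and Esam in all samples of both ages. Of this list 3 genes were tested and 0 were called by limma, 1 of them having an unadjusted p under 0.05. Kdr, the VEGF receptor and the most abundant of the list, read 2.04, 7.75 and 0.435 FPKM in the adult and 15.95, 12.3 and 36.7 FPKM at E16.5 (adjusted p = 0.0809, limma). Its log2 change was -2.60. Cldn5 and Tie1, the others tested, went the other way, at 1.13 and 1.002 (adjusted p = 0.435 and 0.468, limma). In the adult both were above 0 in replicate 2 alone, at 9.48 and 8.22 FPKM. The list's median log2 change was 1.002, beside -0.86 over all genes tested. The 7 red blood cell markers in the table summed to 0 to 6.49 FPKM in the adult and 54.1 to 324 FPKM at E16.5. Of these, 6 were at 0 in all adult samples. The globins Hbb-bs and Hba-a2, 2 of the 3 tested, were called higher at E16.5, where the background is 8.83%. The part of these cells in the Slc2a1 values was not tested. In a pulldown of tagged ribosomes from pooled tissue, fewer cells of a type, less RNA per cell and less carry-over of untagged RNA cannot be told apart.

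Slc2a8 (GLUT8, at 2:32972990-32982083, minus strand), a transporter of intracellular membranes, read 1.22, 11.2 and 40.6 FPKM in the adult and 0.0424, 0.907 and 6.38 FPKM at E16.5. The means differed 7.23-fold, yet both ages spread widely and overlapped, and the log2 change was 2.09 (SE 1.22, adjusted p = 0.276, limma). The lowest values stand for about 9.07 reads in adult replicate 1 and 1.003 reads in E16.5 replicate 1, by the size of single-read steps in the table. Slc2a3 (GLUT3, at 6:122727809-122801640, minus strand), the high-affinity transporter of neurons, was listed at 0 in 5 samples and at 0.0180 FPKM, about 0.986 of a read, in E16.5 replicate 3. An exact 0 in a table without counts can be a failed estimate, since Pgk1, a glycolytic enzyme gene that every cell uses, is also listed at 0 in adult replicate 3, so these zeros set no upper limit. Slc2a3 was below the filter and not tested.

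**Figure D1:**
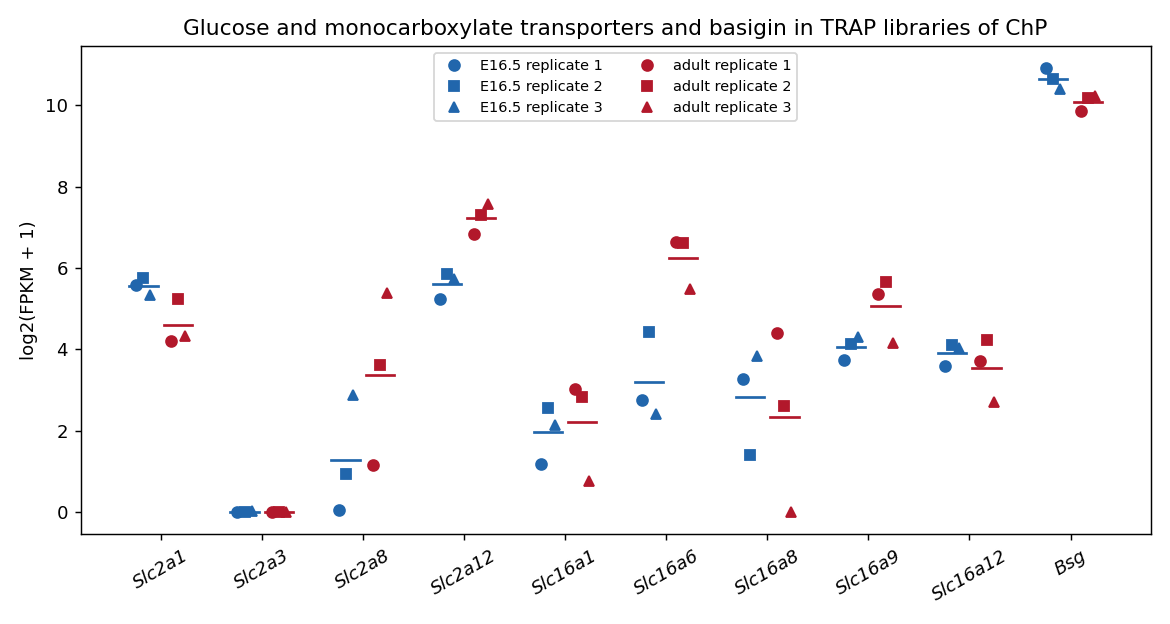
Level of each of the 10 genes in each library, as log2(FPKM + 1) on the vertical axis, with E16.5 in blue and adult in red, a symbol for each replicate and a bar for the group mean. Slc2a12 and Slc16a6 are higher in all 3 adult libraries, Slc2a1 and Bsg are lower in all 3, and Slc2a8, Slc16a1 and Slc16a8 are widely spread.

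Among the monocarboxylate transporters, Slc16a6 (MCT7, at 11:109450855-109473598, minus strand), linked to the export of ketone bodies from liver cells, differed most between the ages. It read 98.7, 96.7 and 43.9 FPKM in the adult and 5.75, 20.5 and 4.28 FPKM at E16.5. The lowest adult sample was still above the highest E16.5 sample. The means were 79.8 ± 31.1 and 10.2 ± 8.98 FPKM (SD, n = 3 each), with a log2 change of 3.05 (SE 0.63, adjusted p = 0.0280, limma) and an exact permutation p of 0.1. Slc2a12 and Slc16a6 are the 2 of 9 tested members with no overlap and the adult higher, against 7.39% of all genes tested. The call of Slc16a6 was lost without adult replicate 1 or 2 (adjusted p = 0.0774 and 0.0583, limma), without E16.5 replicate 1 or 3 (0.105 and 0.0897) and with no filter on low values (0.0504), at log2 changes of 2.65 to 3.05. Under the other scalings tried its change was 2.29 to 3.91 and remained called.

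Slc16a6 shared 21.2% of its 50-base stretches with other genes, among them Amz2, a predicted peptidase gene on the opposite strand. Amz2 read 10.5, 9.69 and 34.1 FPKM in the adult and 15.7, 26.0 and 29.3 FPKM at E16.5, overlapping, with a log2 change of -0.55 (adjusted p = 0.531, limma). Arsg, a lysosomal sulfatase gene also overlapping on that strand, had a log2 change of -1.21 (adjusted p = 0.304, limma). The part of neighbouring genes in the Slc16a6 values was not tested.

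Slc16a9 (MCT9, at 10:70245100-70285968, plus strand), a carnitine transporter, read 40.4, 49.5 and 16.7 FPKM in the adult and 12.3, 16.4 and 18.7 FPKM at E16.5. Adult replicates 1 and 2 were above all E16.5 samples and adult replicate 3 was among them. The log2 change was 1.009 (SE 0.50, adjusted p = 0.211, limma), and without adult replicate 3, the shallowest library, it was 1.46 and passed (adjusted p = 0.0406, limma). The gene shared 19.0% of its 50-base stretches with Gm7097 and Gm9877 on the opposite strand. Neither is among the gene names measured, and their part in the Slc16a9 values was not tested.

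Slc16a12 (MCT12, at 19:34668403-34747289, minus strand), a creatine transporter, read 12.1, 17.6 and 5.52 FPKM in the adult and 11.1, 16.1 and 15.4 FPKM at E16.5. The ages overlapped, with means of 11.8 ± 6.07 and 14.2 ± 2.71 FPKM and a log2 change of -0.37 (SE 0.55, adjusted p = 0.674, limma) that turned to 0.42 under quantile normalization.

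Slc16a1 and Slc16a8 encode proton-coupled lactate transporters. Slc16a1 (MCT1, at 3:104638668-104658462, plus strand), the widely used carrier of lactate and ketone bodies, read 7.12, 6.13 and 0.695 FPKM in the adult and 1.28, 4.90 and 3.38 FPKM at E16.5. Slc16a8 (MCT3, at 15:79251014-79254761, minus strand), known from retinal pigment epithelium and ChP, read 20.2, 5.04 and 0 FPKM in the adult and 8.68, 1.63 and 13.4 FPKM at E16.5. Both genes overlapped between the ages and their samples spread more than their means differed. The log2 changes were 0.24 (SE 0.84, adjusted p = 0.859) for Slc16a1 and -0.50 (SE 1.21, adjusted p = 0.797) for Slc16a8, both by limma. Without adult replicate 3, where Slc16a8 is listed at 0, its log2 change was 0.66. Slc16a8 per Slc16a1 was 2.84, 0.822 and 0 in the adult and 6.77, 0.333 and 3.95 at E16.5, a ratio with no order between the ages (exact permutation p = 0.3).

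Bsg (at 10:79704491-79711969, plus strand) was the most abundant member in all samples. It read 930 (replicate 1), 1154 and 1202 FPKM in the adult and 1925, 1606 and 1352 FPKM at E16.5. All adult samples lay below all E16.5 samples, with means of 1095 ± 145 and 1628 ± 287 FPKM, 1.49-fold higher at E16.5. The log2 change was -0.56 (SE 0.24, adjusted p = 0.152, limma), or 0.29 relative to the median over all genes tested. Among genes above 0 in every sample, Bsg stood at -0.19 relative to their median. Its change turned to 0.14 under quantile normalization and was called at -1.39 once libraries had equal sums (adjusted p = 0.0155, limma). Bsg and Slc2a1 are the 2 tested members lower in all adult samples, and 31.0% of all genes tested were so.

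Over the 9 tested members the median log2 change was 0.24, that of Slc16a1, and 8 of 9 lay above the median of all genes tested. Relative to that median, Slc16a6 stood at 3.91, Slc2a8 at 2.94, Slc2a12 at 2.49 and Slc16a9 at 1.86. The count depends on the filter. Among genes above 0 in every sample, Bsg stood at -0.19 and Slc16a12 at 0.013 relative to their median. Slc16a6, Slc2a8, Slc2a12 and Slc16a9 stood there at 3.43, 2.47, 2.01 and 1.39.

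**Figure D2:**
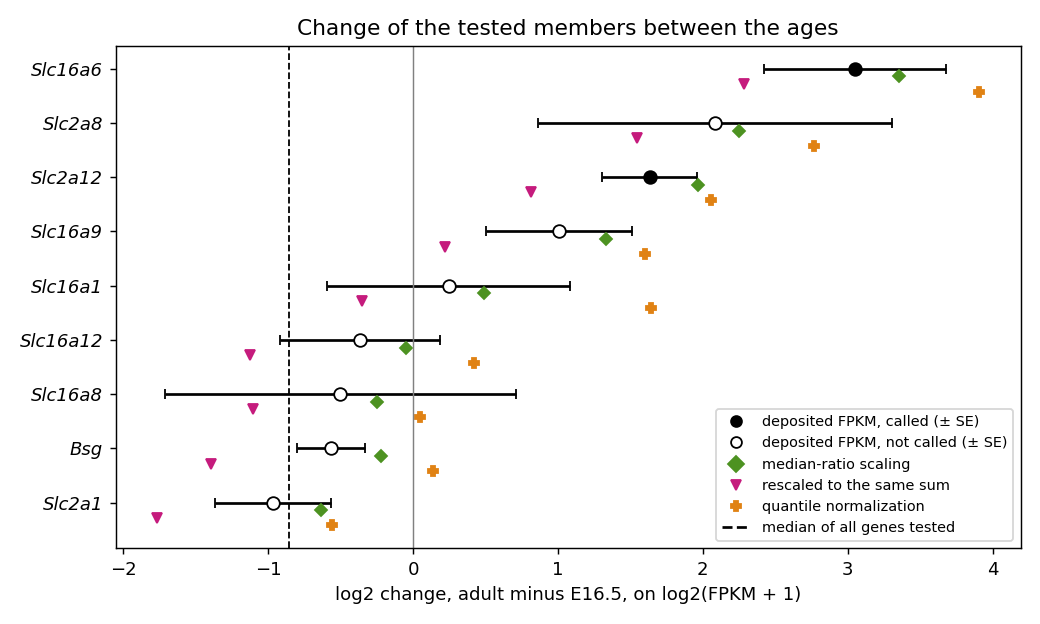
Log2 change of each tested member, adult minus E16.5 on log2(FPKM + 1), from the deposited values (circles with SE, filled where the adjusted p of limma was under 0.05) and after 3 other scalings (diamonds, triangles and crosses), with the median of all genes as a dashed line. Slc16a6, Slc2a8, Slc2a12 and Slc16a9 lie above 0 under all 4, Slc2a1 lies below 0 under all 4, and Bsg, Slc16a8, Slc16a12 and Slc16a1 change sign under 1 scaling each.

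The share of a gene among the listed members of its family does not move when a library is multiplied by a factor. Shares were not computed after quantile normalization, which shifts genes unequally. Slc2a1 was 56.3, 48.0 and 40.1% of the summed Slc2 members at E16.5 and 13.4, 17.8 and 7.71% in the adult. Slc2a12 was 43.6, 51.2 and 53.4% at E16.5 and 85.7, 76.8 and 75.9% in the adult. The Slc2 members were thus near equal parts Slc2a1 and Slc2a12 in the embryo and mostly Slc2a12 in the adult, with differences of -35.2 and 30.1 percentage points (exact permutation p = 0.1 each, the smallest possible). Slc2a12 per Slc2a1, a ratio chosen after its values were seen, was 0.774, 1.07 and 1.33 at E16.5 and 6.41, 4.32 and 9.85 in the adult. Slc2a8 made up 0.0507 to 6.52% at E16.5 and 0.930 to 16.3% in the adult (exact permutation p = 0.5).

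Shares of the Slc16 members are taken over the 5 listed here, not over the whole family, and their size depends on that choice. Slc16a6 was 14.7, 34.4 and 7.77% of the sum at E16.5 and 55.3, 55.3 and 65.7% in the adult, a difference of 39.8 percentage points. Slc16a12 was 28.4, 27.1 and 28.0% at E16.5 and 6.78, 10.1 and 8.26% in the adult, a difference of -19.5 percentage points. Neither gene overlapped between the ages in share (exact permutation p = 0.1 each), whereas the level of Slc16a12 did overlap. The shares of Slc16a9 (31.4, 27.5 and 33.9% at E16.5, 22.6, 28.3 and 25.0% in the adult), Slc16a8 and Slc16a1 overlapped (exact permutation p = 0.2, 0.3 and 0.3).

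The 5 Slc16 members together came to 19.2, 15.2 and 5.56% of Bsg in the adult and to 2.03, 3.71 and 4.07% at E16.5. The adult samples were all higher, with means of 13.3 ± 7.01% and 3.27 ± 1.09% (exact permutation p = 0.1). Slc16a6, Slc16a9 and Slc16a12 make up most of this sum, and basigin is best known as the partner of the lactate carriers.

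**Figure D3:**
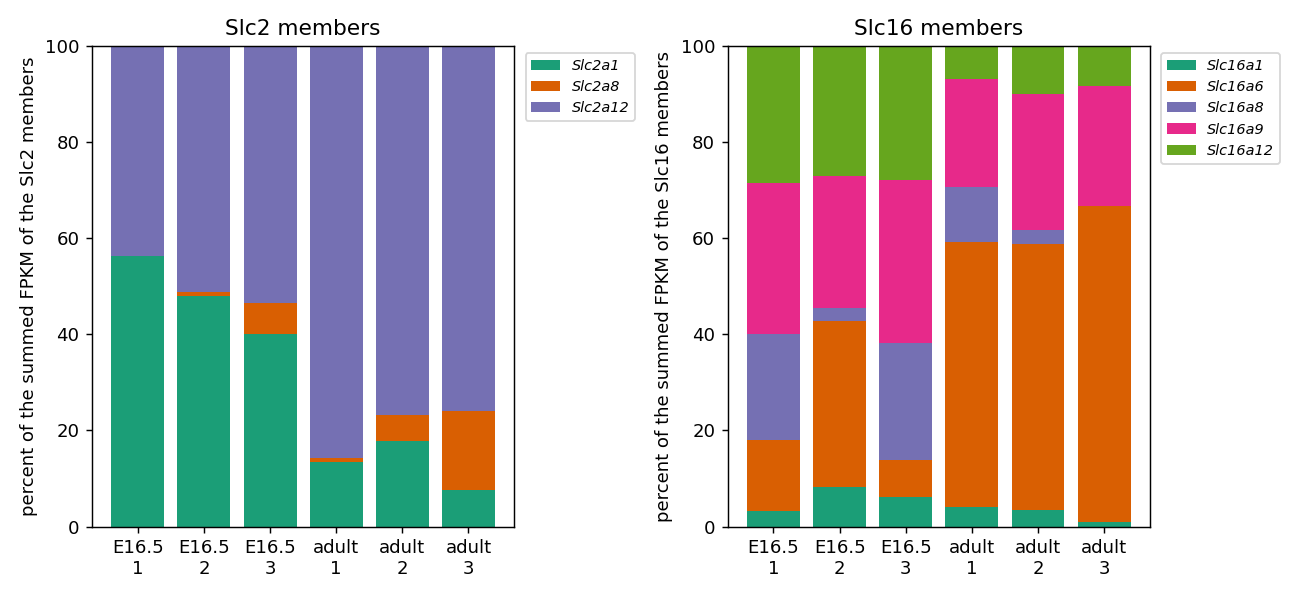
Percent of the summed FPKM of the Slc2 members (left) and of the Slc16 members (right) taken by each gene, 1 bar per library, E16.5 replicates first. Slc2a12 takes 75.9 to 85.7% of the Slc2 members in the adult against 43.6 to 53.4% at E16.5, and Slc16a6 takes 55.3 to 65.7% of the Slc16 members against 7.77 to 34.4%. Slc2a3 is too low to be drawn.

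By mean level, the adult order was Bsg, Slc2a12, Slc16a6, Slc16a9, Slc2a1, Slc2a8, Slc16a12, Slc16a8, Slc16a1 and Slc2a3. Neighbours in this order did not overlap for Bsg and Slc2a12, for Slc2a12 and Slc16a6, and for Slc16a1 and Slc2a3, whereas all neighbours from Slc16a6 to Slc16a1 overlapped. At E16.5 the order was Bsg, Slc2a12, Slc2a1, Slc16a9, Slc16a12, Slc16a6, Slc16a8, Slc16a1, Slc2a8 and Slc2a3. Neighbours did not overlap there for Bsg and Slc2a12, for Slc2a1 and Slc16a9, and for Slc2a8 and Slc2a3, whereas Slc2a12 and Slc2a1 overlapped. By mean, Slc16a6 stood behind Slc16a9 and Slc16a12 at E16.5, where the 3 overlapped and it was the highest of them in replicate 2, and ahead of both in the adult.

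Of 16 other Slc2a and Slc16a genes described, 4 were tested. By limma 0 were called higher in the adult and 1 at E16.5, beside 2.12% and 8.83% of all genes tested. Their median log2 change was -0.95, beside -0.86 over all genes tested. The 4 tested were Slc16a genes. Slc2a4 (GLUT4), the insulin-responsive transporter, read 5.17 FPKM in E16.5 replicate 1 and 0 to 0.215 FPKM elsewhere, and was not tested. Slc16a10, a transporter of aromatic amino acids, was listed at 0 in all adult samples and read 17.05, 10.4 and 18.4 FPKM at E16.5 (adjusted p = 0.0118, limma). This call rests on adult zeros, as do those of Hbb-bs and Hba-a2, and an exact 0 can be a failed estimate. Slc16a4, Slc16a11 and Slc16a13, less studied members of the family, overlapped between the ages (adjusted p = 0.350, 0.899 and 0.698, limma).

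Of the partners and glucose-to-pyruvate genes, 33 of 39 were tested. By limma 2 were called higher in the adult and 1 at E16.5, beside 2.12% and 8.83% of all genes tested. On the log2 scale the list's median change was -0.44, beside -0.86 over all genes tested. Nptn (neuroplastin), a basigin relative that partners with MCT2, read 89.8, 110.1 and 43.6 FPKM in the adult and 16.5, 15.8 and 9.90 FPKM at E16.5. It rose without overlap, with a log2 change of 2.38 (SE 0.46, adjusted p = 0.0234, limma). Emb (embigin), the other relative and a partner of MCT1 and MCT2, read 37.6 to 69.9 FPKM in the adult and 27.0 to 54.9 FPKM at E16.5 (log2 change 0.37, adjusted p = 0.556, limma). Slc16a7, the gene of MCT2, was listed at 0 in all adult samples and at 0, 0.741 and 0 FPKM at E16.5, and was not tested.

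Among the enzymes, Hk1, the hexokinase that traps glucose as glucose 6-phosphate, had means of 119.6 ± 10.1 FPKM in the adult and 44.9 ± 15.1 FPKM at E16.5 and rose (log2 change 1.44, SE 0.33, adjusted p = 0.0364, limma). Hk2 read 0 to 4.30 FPKM in the adult and 0.0511 to 4.63 FPKM at E16.5 (adjusted p = 0.677, limma). Pfkl, the liver-type phosphofructokinase, read 34.6, 39.1 and 36.4 FPKM in the adult and 65.7, 91.9 and 99.7 FPKM at E16.5, and was higher at E16.5 (log2 change -1.18, SE 0.31, adjusted p = 0.0487, limma), or -0.33 relative to the median over all genes tested.

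Ldha and Ldhb encode the subunits of lactate dehydrogenase, which interconverts pyruvate and lactate. Ldha read 38.8, 69.6 and 4.51 FPKM in the adult and 215, 202 and 167 FPKM at E16.5. Ldhb read 675, 1011 and 714 FPKM in the adult and 515, 471 and 465 FPKM at E16.5. The ages did not overlap in either gene and stood in opposite order, but neither passed the test. The log2 changes were -2.96 (SE 0.85, adjusted p = 0.0646) for Ldha and 0.70 (SE 0.24, adjusted p = 0.0974) for Ldhb by limma. Of the 33 tested genes of this list, 7 were higher in every adult sample and 9 lower, beside 7.39% and 31.0% of all genes tested. Pgk1 read 1.42, 11.2 and 0 FPKM in the adult. Whether low adult values in this list are failed estimates was not tested.

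The mitochondrial pyruvate carrier genes Mpc1 and Mpc2 had log2 changes of -2.33 and -0.62 (adjusted p = 0.0761 and 0.527, limma). Those of the pyruvate dehydrogenase kinases Pdk1, Pdk2, Pdk3 and Pdk4, which hold pyruvate back from oxidation, were -2.05, -0.59, 1.22 and 0.23 (adjusted p = 0.222, 0.230, 0.0850 and 0.801, limma). Txnip, which promotes removal of GLUT1 from the cell surface, read 15.8, 31.0 and 41.1 FPKM in the adult and 94.1, 53.3 and 84.3 FPKM at E16.5. It did not overlap between the ages but was not called (log2 change -1.43, SE 0.44, adjusted p = 0.0775, limma). The sodium-coupled monocarboxylate transporters Slc5a8 and Slc5a12 were at 0 in all samples.

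**Figure D4:**
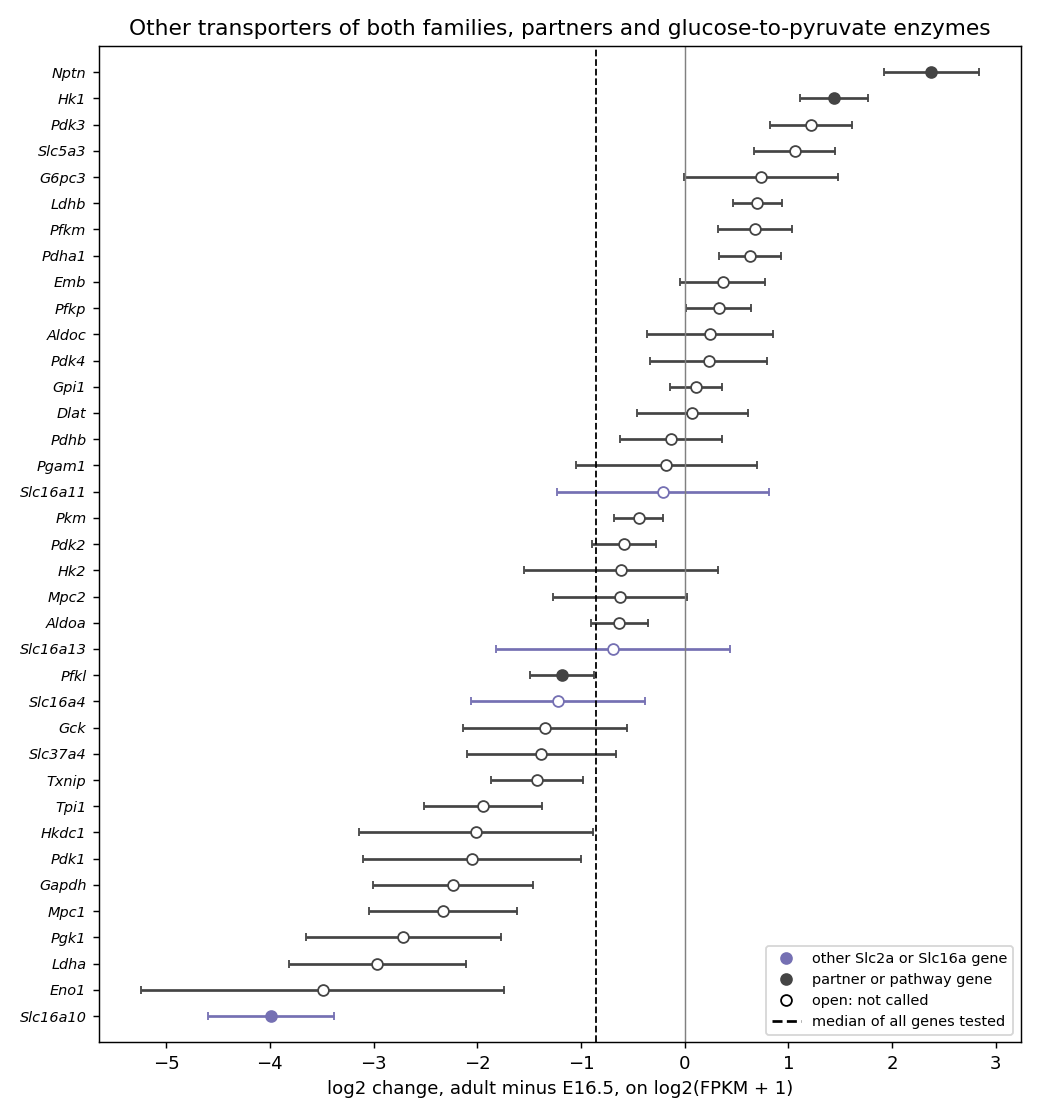
Log2 change, adult minus E16.5 on log2(FPKM + 1), with SE, of the tested genes among the 16 other Slc2a and Slc16a genes (violet) and partner and pathway genes (grey), filled where the adjusted p of limma was under 0.05, with the median of all genes dashed. Nptn and Hk1 are called above 0, and Pfkl and Slc16a10 below 0.

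Of 10 hypoxia-responsive genes, listed because Slc2a1 is a textbook target of hypoxia-inducible factor, 8 were tested, 0 were called higher in the adult by limma and 2 at E16.5, where the background is 8.83%. The list's median log2 change was -1.68, beside -0.86 over all genes tested. The 2 were Egln3, an oxygen-sensing prolyl hydroxylase, and Ndrg1, a stress-response gene, at log2 changes of -2.92 and -2.80 (adjusted p = 0.0316 and 0.0321, limma). Egln3 read 0, 0.182 and 0 FPKM in the adult and 4.45, 12.2 and 6.08 FPKM at E16.5. Ndrg1 read 0, 0.336 and 0 FPKM in the adult and 8.42, 8.37 and 4.16 FPKM at E16.5. Both calls rest largely on adult zeros, which can be failed estimates. Vegfa, the endothelial growth factor, was not called (log2 change -1.16, adjusted p = 0.234, limma). P4ha1, a collagen prolyl hydroxylase, read 37.7, 40.6 and 35.9 FPKM in the adult and 21.9, 26.8 and 35.6 FPKM at E16.5, higher in all adult samples but not called (log2 change 0.45, adjusted p = 0.401, limma).

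The genes most like a member in pattern were taken by Pearson r of log2(FPKM + 1) over the 6 samples, points that share library and depth. They were Cnnm2, Strip2 and Usp19 for Slc2a12 (r of 0.996, 0.993 and 0.993), Ndufs3, Rps24 and Chkb for Slc2a1 (0.999, 0.997 and 0.996), Mrap2, Uty and Slc38a10 for Slc16a6 (0.994, 0.992 and 0.990), and Evc, Plxnb1 and Pcdh7 for Slc16a9 (0.993, 0.989 and 0.984). Uty is Y-linked and averaged 13.5 FPKM in the adult and 0.641 FPKM at E16.5. By the methods the study as a whole included both sexes, but the make-up of each pool is not given in the sources used here, and its part in the member values was not tested.

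Libraries differed between the ages. By the size of single-read steps, relative depth was 1 to 2.86 in the adult and 4.02 to 5.08 at E16.5, and 10.3 to 36.4% of tested genes were at 0 in the adult libraries against 3.68 to 4.02% at E16.5. Mir6236, a small RNA gene, took 32.7 to 51.7% of summed FPKM in the adult and 13.3 to 15.0% at E16.5. The calls over all genes were 246 higher in the adult and 1024 at E16.5, and became 348 and 660 with median-ratio scaling, 119 and 3238 after rescaling to the same sum, and 466 and 449 with quantile normalization. For the marker lists that follow, the background is 2.12% of all genes tested called higher in the adult and 8.83% at E16.5. All 12 ChP epithelium markers were tested, with 4 called higher in the adult and 3 at E16.5. Their sum was 39288 to 54589 FPKM in the adult and 3635 to 3994 FPKM at E16.5, led by Ttr (transthyretin), and Enpp2 (autotaxin), whereas Otx2, a ChP transcription factor, was higher at E16.5 (adjusted p = 0.0251, limma). In the adult Ttr read 20922 to 31302 FPKM and Enpp2 14886 to 18732 FPKM, so the adult sum rests mostly on these 2 genes. At E16.5 Enpp2 read 242 to 303 FPKM. Of the 12 markers, 6 were higher in every adult sample and 5 lower, beside 7.39% and 31.0% of all genes tested. Ttr is listed at 0 in all E16.5 samples, which can be a failed estimate, and the count of calls rests in part on it. Neuron markers summed to 2.36 to 8.88 FPKM in the adult and 19.5 to 127 FPKM at E16.5 (7 of 8 tested, with Map2 called higher at E16.5), and mesenchyme markers to 13.3 to 22.0 and 58.6 to 69.4 FPKM (6 of 7 tested, with Pdgfra called higher at E16.5). Macrophage markers summed to 0.0695 to 7.35 and 0.584 to 8.48 FPKM (3 of 8 tested). Glia markers summed to 1.05 to 73.0 and 2.92 to 6.75 FPKM (2 of 5 tested), with the myelin gene Mbp at 58.7 FPKM in adult replicate 3. Limma called 0 macrophage or glia markers, and 0 of these had an unadjusted p under 0.05. The part of depth, Mir6236 and other cells in the member values was not tested.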

How the data were processed

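TRAP-seq libraries were grouped by the age in their labels. By the methods, the authors aligned 50-base single-end reads to mm10 with STAR 2.4.0 and made the deposited FPKM with Cuffquant (Cufflinks). Which annotation Cuffquant used and the strand setting are not given in the sources used here. The authors' count-based DESeq2 test was not repeated because counts were not analysed here.

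No further scaling was applied. The limma package (3.58.1, R 4.3.3) was fitted to log2(FPKM + 1) of the 11601 genes, of 24354, whose mean over the 6 samples exceeded 1. The fit had age alone as its term and a trend of variance with level, and Benjamini-Hochberg adjustment ran over all these genes (threshold 0.05). The fit was tested on simulated data. Shares, ratios and single genes were compared by two-sided exact permutation tests. Every member was named, with the tested genes of both families (1 gene is not reported here and was left out of the lists), preset partner and pathway genes, the 2 most abundant markers of lists discussed, and the 3 genes most like the 2 highest members of each family. Not every gene the rule takes is named, and some others (Tbpl1, Amz2, Arsg, Mir6236, Slc2a4, Otx2, Pgk1, the hypoxia genes) were chosen after their values were seen. The members and lists were chosen with earlier results of these data known.

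Depth was read from the steps of single reads among 35 to 63 low values per library in 2523 single-transcript coding genes, of which 65.1 to 82.1% lay within 0.1 of a whole read, at the transcript length minus 200 bases. Coordinates and 50-base stretches came from GENCODE M21 (GRCm38), with 23289 table names matched by symbol, and promoters from RefSeq, for 7 of 10 members. Reads were not collapsed by molecular identifiers. Alternatives were other pseudocounts, filters and scalings, no trend, a replicate block and leaving out each sample. Rescaling without Mir6236 was added after seeing the data.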

Additional observations from a re-analysis of the deposited data

How the results depend on the processing

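The 2 members higher in the adult became 1 without the filter, 1 after rescaling to the same sum and 1 with limma without a trend, and 0 to 3 when single samples were left out. Members higher at E16.5 went from 0 to 2 (Slc2a1 and Bsg) after rescaling to the same sum. Without the trend the adjusted p of Slc2a12 was 0.0688 (limma), and over 16 alternatives Slc2a12 and Slc16a6 were each called in 11, at adjusted p of 0.00841 to 0.152 and 0.0183 to 0.105. Slc2a8 was called in none of its 16 alternatives. Rescaling without Mir6236, chosen after seeing the data, left 2 members higher in the adult and 0 at E16.5.

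Signs turned among members that were not called. Slc16a1 was -0.35 after rescaling to the same sum and -0.16 to 0.97 with single samples left out. Slc16a8 was 0.045 under quantile normalization and -1.54 to 0.66 with single samples left out. Slc16a12 was 0.42 and -0.70 to 0.055, and Bsg was 0.14 under quantile normalization. The causes were not tested. Over every Slc2a gene of the table, the adult minus E16.5 difference in the Slc2a12 share was 31.0 percentage points. The same alternative for the Slc16 sums is not given, so how far the Slc16 shares and the percent of Bsg depend on the genes summed is not shown here.

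Deviations of same-numbered samples from the mean of their age had r of 0.000895, 0.0439 and 0.0150, which gives no sign of pairing. With 3 samples per age, such values cannot exclude a shared preparation. With a replicate block 2 members were higher in the adult and 0 at E16.5, with adjusted p of 0.0454 for Slc2a12 and 0.0303 for Slc16a6 (limma), and calls over all genes were 112 and 452. Without E16.5 replicate 1, 2 or 3 those calls were 100 and 478, 90 and 349, and 97 and 407, without adult replicate 1 131 and 484, without adult replicate 2 221 and 1704, and without adult replicate 3 338 and 1241. What depth limits was not compared between members.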
